A study of Mus musculus with 2 samples.

Results

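The members described here are 72 rows of a mouse RNA-seq table that the table's own KEGG Orthology column assigns to K09228, the orthology group of KRAB zinc finger proteins, and that carry only a provisional symbol. A provisional symbol starts with Gm and a digit (48 members) or ends in Rik (24 members). Of the 16803 rows of the table, 434 were assigned to K09228, 77 of these had such a symbol, and 72 of the 77 had at least 10 estimated reads in both libraries together. NE4C cells, a mouse line with properties of neural stem cells, were the source of all RNA. One library was made from total RNA of a normal control culture and another after treatment with homocysteine thiolactone (HTL), a cyclic metabolite of homocysteine that can modify proteins, so that each group has 1 library. The labels give neither dose nor duration, and they name no difference in genotype. Both samples share this single line.

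KRAB zinc finger proteins pair a KRAB domain, which recruits the corepressor TRIM28 and with it histone methylation machinery, with an array of C2H2 zinc fingers that bind DNA. They form one of the largest families of mammalian DNA-binding proteins, and many are known for silencing transposable elements in early embryonic and neural cells. Mouse members lie in clusters that grew by tandem duplication, so neighbouring copies can be nearly identical. Reads from such copies map equally well to several genes, and the authors' counting program, RSEM, divides them between the copies by estimation.

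Coding sequences show what the members share. A finger is followed by a linker peptide whose code can be written ACNGGNGANAANCCN on the coding strand, where N is any base, and consecutive fingers repeat at 84 bases. The longest coding sequence of 58 members was found by symbol in the GENCODE vM1 transcripts (NCBIM37), and 53 of these 58 (91.4%) held the linker letters at least once, against 2.27% of all 22611 genes in that file. The median member had 6 linkers and the highest number was 22, in Gm14295. Of 374 distances between consecutive linkers, 311 (83.2%) were exactly 84 bases. One finger from each of 3 members is shown to compare 2 copies of the chromosome 2 cluster, which holds 14 of the 28 members called lower, with Gm13157 of chromosome 4, the linkers being in capitals:
Gm14430: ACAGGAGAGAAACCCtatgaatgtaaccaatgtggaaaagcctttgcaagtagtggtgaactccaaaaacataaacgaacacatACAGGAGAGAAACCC
Gm6710: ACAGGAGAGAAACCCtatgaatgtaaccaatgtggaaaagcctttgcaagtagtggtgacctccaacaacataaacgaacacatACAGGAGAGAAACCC
Gm13157: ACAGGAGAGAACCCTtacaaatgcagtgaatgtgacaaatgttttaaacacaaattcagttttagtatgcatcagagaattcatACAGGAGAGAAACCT
The KRAB box letters GANGTNATGNTNGANNNNTA were found in the coding sequence of 27 of the 58 members (46.6%) and of 0.739% of all genes. A missing match says only that these letters are not in that annotated coding sequence. The KRAB stretch is shown for a member that was lower and for a member of the same chromosome 4 cluster that was not called, followed by one from chromosome 2, with the motif in capitals:
Gm13157: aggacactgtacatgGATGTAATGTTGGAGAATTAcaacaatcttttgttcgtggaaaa
Gm13139: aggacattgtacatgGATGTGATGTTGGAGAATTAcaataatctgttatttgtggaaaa
Gm6710: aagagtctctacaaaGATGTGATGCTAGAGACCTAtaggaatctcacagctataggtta

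Many start regions of the chromosome 2 copies shared sequence as well. RefSeq (GRCm38.p6) gave a window of 250 bases before to 50 bases after the start for 58 members. Gm14434, Gm14308, Gm4724 and 0610010B08Rik had the same 300 bases, letter for letter. The longest run present in at least 80% of the 20 promoters available for the chromosome 2 cluster was 54 bases long, held by 18 of the 20, and is in capitals in the window of Gm14434 (chr2:176486700-176486999, minus strand):
Gm14434: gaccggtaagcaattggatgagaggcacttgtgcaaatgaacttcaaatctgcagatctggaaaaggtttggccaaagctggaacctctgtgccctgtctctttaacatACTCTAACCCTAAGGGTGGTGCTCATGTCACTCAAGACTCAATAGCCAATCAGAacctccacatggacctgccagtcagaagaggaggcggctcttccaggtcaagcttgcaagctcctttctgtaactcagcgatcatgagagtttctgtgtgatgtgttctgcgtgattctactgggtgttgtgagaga
The 54-base run, searched on both strands, occurred in 26 of 27025 genes with a promoter window (0.0962%), 18 of them members. Near its end it holds a CCAAT box, and CCAAT alone on either strand was in 41.1% of all genes' windows, so that short motif is common. CCAAT was in 50 of the 58 members' windows (86.2%). These include the 20 of the chromosome 2 cluster, of which 18 hold the run. For 6 other members of the cluster, chosen among those that hold it, the run is shown with 40 bases before and 60 after it, and capitals mark each base that differs from Gm14434:
Gm6710 (chr2:175869121-175869274, + strand): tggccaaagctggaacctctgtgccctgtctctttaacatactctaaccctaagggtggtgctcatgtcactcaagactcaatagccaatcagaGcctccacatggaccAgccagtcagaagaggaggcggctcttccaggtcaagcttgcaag
Gm14326 (chr2:177957315-177957468, - strand): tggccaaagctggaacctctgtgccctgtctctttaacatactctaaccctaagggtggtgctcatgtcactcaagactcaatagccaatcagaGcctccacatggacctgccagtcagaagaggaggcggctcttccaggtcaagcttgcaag
Gm14305 (chr2:176708164-176708317, + strand): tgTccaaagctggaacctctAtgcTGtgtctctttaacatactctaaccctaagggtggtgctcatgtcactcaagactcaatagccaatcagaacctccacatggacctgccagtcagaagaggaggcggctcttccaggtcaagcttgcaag
Gm14325 (chr2:177840344-177840497, - strand): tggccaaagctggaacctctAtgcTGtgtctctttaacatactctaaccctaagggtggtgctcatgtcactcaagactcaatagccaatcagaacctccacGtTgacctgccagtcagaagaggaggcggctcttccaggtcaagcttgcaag
Gm14420 (chr2:177464588-177464741, + strand): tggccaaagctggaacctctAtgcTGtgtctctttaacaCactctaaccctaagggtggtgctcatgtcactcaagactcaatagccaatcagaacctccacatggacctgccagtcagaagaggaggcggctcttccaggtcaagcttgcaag
Gm8923 (chr2:175469862-175470015, + strand): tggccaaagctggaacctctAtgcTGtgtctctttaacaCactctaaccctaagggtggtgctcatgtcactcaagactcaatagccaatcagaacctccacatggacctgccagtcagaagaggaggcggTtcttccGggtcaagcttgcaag
These stretches differed from Gm14434 at between 1 and 6 of 154 bases. The member with the most reads, Gm4944, lies on chromosome 17 and its window (chr17:22225565-22225864, minus strand, GRCm38.p6) does not hold the run. Its CCAAT letters, read on either strand, are in capitals:
Gm4944: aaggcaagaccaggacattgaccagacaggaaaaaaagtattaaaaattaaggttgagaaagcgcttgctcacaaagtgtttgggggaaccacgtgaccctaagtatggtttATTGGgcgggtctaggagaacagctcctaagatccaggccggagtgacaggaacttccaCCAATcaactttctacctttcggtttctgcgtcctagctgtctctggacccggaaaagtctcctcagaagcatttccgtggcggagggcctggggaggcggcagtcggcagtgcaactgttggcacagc

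The libraries held 10350646 control and 9102057 HTL reads assigned to genes, after rounding. Ratios below are HTL over control per library total on the log2 scale with 0.5 read added, and intervals are 95% exact (Clopper-Pearson) and cover counting error only. A row was called higher or lower when its log2 ratio was 1 or more in size and its adjusted p no higher than 0.001 (exact binomial test, Benjamini-Hochberg over 13426 rows). With 1 library per group, such a call compares these 2 libraries, and there was no replicate check of the condition. In a bulk sample, less RNA per cell and fewer cells expressing a gene cannot be told apart. Of 12 neural stem cell markers 11 had at least 10 control reads, and the list summed to 6823.27 control and 4652.01 HTL reads (246.43 and 174.68 FPKM). Nes had 1617 and 1365 reads, Sox2 894 and 285, Sox3 448 and 169, and Vim 1487 and 648, while Notch1 (124 and 231) and Prom1 (443 and 555) had more in the HTL library. Markers of other cell types did not move together. The 5 neuron markers summed to 567.4 and 544.1 reads, or 21.7 and 28.5 FPKM, with Tubb3 at 296.32 and 396.03 reads, Dcx at 88.38 and 28.73, Map2 at 114 and 66, Rbfox3 at 34 and 38, and Snap25 at 34.7 and 15.34. For astrocytes, Gfap had 2 and 0 reads and Aldh1l1 21 and 56. For oligodendrocytes, Mog had 0 and 1 reads and Mbp 182 and 186.09. The 3 fibroblast markers summed to 40 and 63 reads, and Hba-a1 of blood had 2 and 0. The part that these differences play in the results was not tested.

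Most of these zinc finger rows had fewer reads in the HTL library. The members together held 15497.5 control reads and 6106.42 HTL reads, which is 0.15% and 0.0671% of each library. The summed log2 ratio was -1.16 (interval -1.20 to -1.11), or 2.23-fold lower. Of the 72 members, 28 were lower (38.9%), 1 was higher and 43 were not called, where the background over all rows tested was 7.98% lower and 2.82% higher. The median member ratio was -1.07 (quartiles -1.55 and -0.40), against -0.14 for all rows tested, and 61 of 72 members were below 0. The median was also -1.07 with rows at 0 reads set to their bound. The interval lay wholly below 0 for 45 members, wholly above 0 for 1 and spanned 0 for 26.

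Rows of the same orthology group with a Zfp symbol were shifted less. Of 268 such rows, 40 were lower (14.9%) and 7 higher, with a median of -0.44 and a summed ratio of -0.18 (-0.20 to -0.16). The intervals of the 2 sums do not overlap. The remaining 67 rows of K09228 had 15 lower, 1 higher and a median of -0.52. Among 1775 rows outside K09228 whose length and reads lay within the members' own quartiles, 248 (14.0%) were lower, and the median was -0.24. Of the 41 members with at least 100 reads 24 were lower, and of the 31 with fewer 4 were. The part of read number in these calls was not tested. Larger falls and an assumed spread between cultures narrowed the list. At a log2 ratio of at least 2 in size 8 members were lower, against 1.59% of all rows. With edgeR's exact test and an assumed biological coefficient of variation of 0.1, 26 members were lower (background 6.19%). With 0.2 there were 6 (background 0.611%) and with 0.4 there was 1 (background 0.0372%). A scaling other than the library total shifted the ratio of the library scales by 0.11 to 0.14, which moved ratios up by less for the 3 rows at 0 reads, and left 57 of 72 members below 0, and 27 lower.

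**Figure D1:**
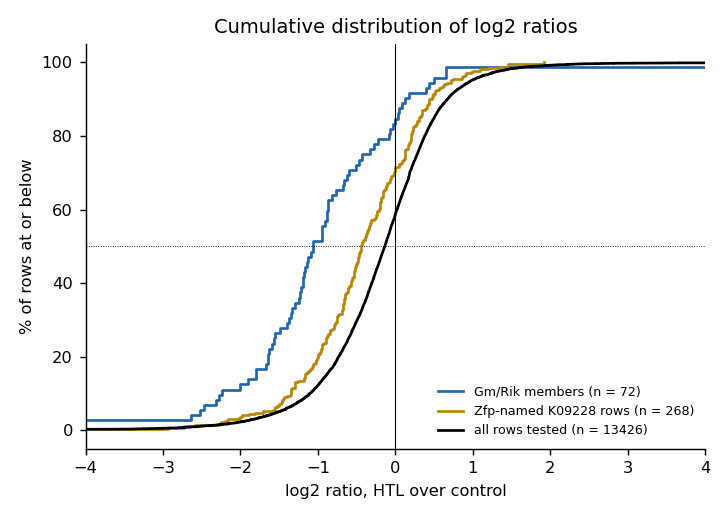
Cumulative share of rows (vertical axis, %) at or below each log2 ratio of HTL over control (horizontal axis) for the 72 members, 268 Zfp-named rows and all 13426 rows tested. The member curve lies left of the others over most of its course and crosses 50% at -1.07, against -0.44 and -0.14.

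**Figure D2:**
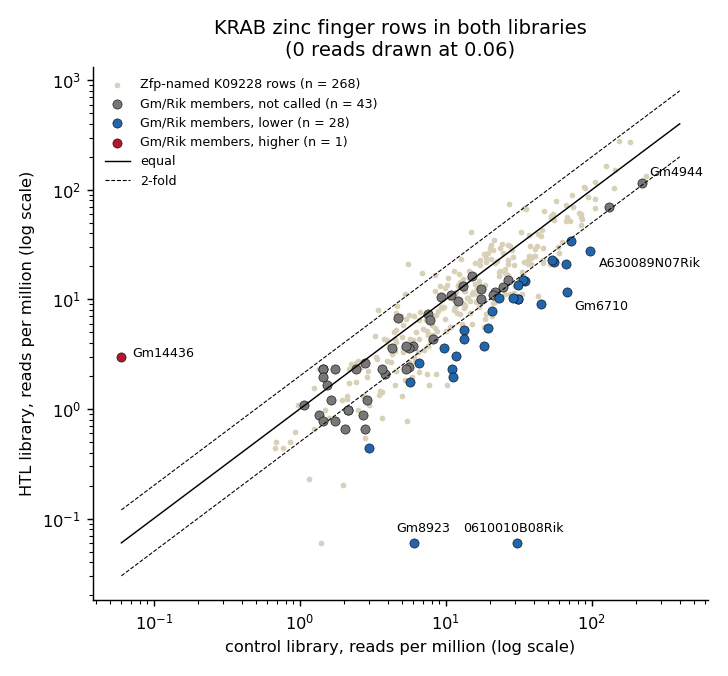
CPM (reads scaled to equal library totals) in the control library (horizontal) and the HTL library (vertical), both on log axes, for each member (large points, coloured by call) and each Zfp-named row (small points), with lines of equality and 2-fold difference. The 28 lower members lie below the lower 2-fold line, and rows with 0 reads in a library are drawn at the axis floor.

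The members with the most reads carried much of the sum. The 10 with the most reads held 56.4% of the members' control reads and 51.8% of their HTL reads. Gm4944, a chromosome 17 gene that RefSeq now lists as Zfp994, had 2296.97 control and 1045.7 HTL reads. Its ratio of -0.95 (-1.06 to -0.84) missed the cutoff of 1 although its adjusted p was 1.23e-72. It was at 45.02 and 23.26 FPKM, a length-scaled level that only A630089N07Rik matched in the control library among the members. Without Gm4944 the members' summed ratio was -1.20.

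Gm14420, listed in RefSeq as Zfp970 (chr2:177249438-177262834, NCBIM37), fell in the same range with 1354.51 and 634.63 reads. Its ratio of -0.91 was also inside the cutoff, so the pair of members with the most reads was not called. A630089N07Rik, which RefSeq lists on chromosome 16 as a long non-coding RNA, was lower at 1008.3 and 253.61 reads. Its ratio was -1.80 (-2.01 to -1.60), and its level went from 45.71 to 13.05 FPKM.

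Gm14325 (chr2:177566496-177575041, NCBIM37) had 684.16 control and 192.32 HTL reads, a ratio of -1.65. Gm14326, at the end of the same cluster, had 465.78 and 81.77 reads, a ratio of -2.31 (-2.68 to -1.98). Both were lower by more than 2-fold with intervals that exclude a log2 ratio of -1. Gm14296 had 360.41 and 133.37 reads and a ratio of -1.25. On chromosome 4, 2610305D13Rik (RefSeq Zfp979) was lower at 572.26 and 197.54 reads, a ratio of -1.34. Its neighbour Gm13157 (RefSeq Zfp984) was lower at 553.53 and 208.9 reads, a ratio of -1.22.

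The 5 lower members with the greatest falls, counts below 3 being set to 3, included 2 with no read at all in the HTL library. 0610010B08Rik, listed in RefSeq as Gm2026, had 319.73 control reads and 0 HTL reads, at least 93.8-fold lower against a floor of 3 reads in the HTL library. Gm8923 (RefSeq Zfp965) had 62.9 and 0 reads, at least 18.5-fold lower. E430018J23Rik had 31.11 and 4 reads, a ratio of -2.63 whose interval ran from -4.73 to -1.27. On the deposited FPKM with 1 added, its ratio was -0.99 and it was no longer past the cutoff. Gm6710 had 697 and 105.6 reads, a ratio of -2.53 (-2.84 to -2.24) with an adjusted p of 5.96e-90 (exact binomial test). D130040H23Rik, on chromosome 8, had 116.25 and 17.55 reads and a ratio of -2.47. D130040H23Rik and E430018J23Rik shared 0.77% and 5.95% of the 50-base windows of their annotated transcripts with other genes. That transcript of D130040H23Rik holds 1218 bases, against 2002 in its counted row. The control counts of both members were fractional even so, and the part of shared reads in these falls was not tested. The rows at 0 reads are copies, as described below.

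Gm14436 was the 1 member that was higher. It had 0 control reads and 26.81 HTL reads, at least 10.2-fold higher against a floor of 3 control reads. Every 50-base window of its annotated transcript, which holds 957 bases, all coding, occurs in another gene as well. Its counted row is 1335 bases long, and the bases beyond that transcript were not compared.

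**Figure D3:**
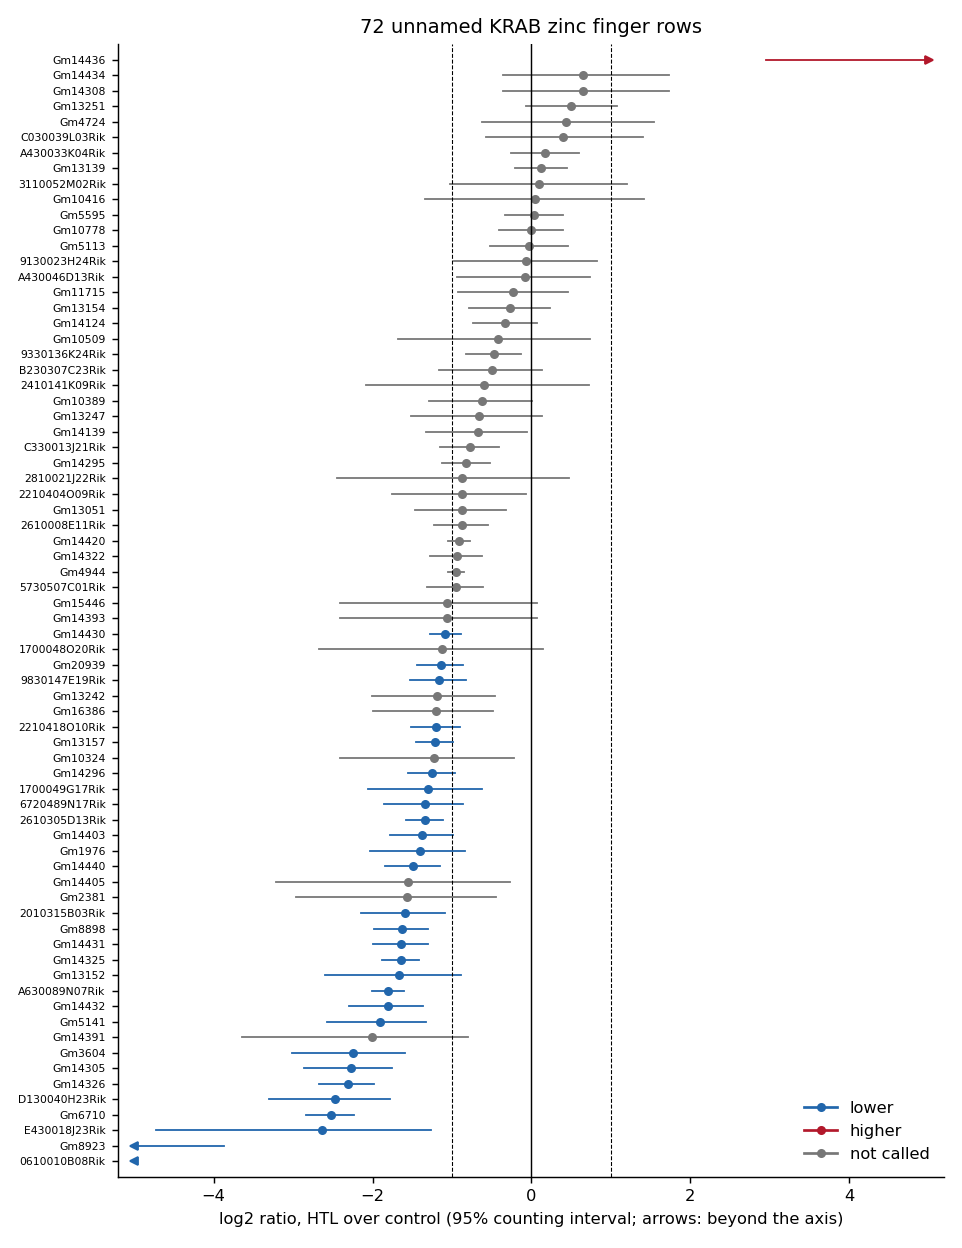
Log2 ratio of HTL over control (horizontal axis) for each of the 72 members, ordered by ratio, with 95% counting intervals as lines and colour for the call. Points to the left of 0 outnumber the others by 61 to 11, and arrows mark the 3 members with 0 reads in 1 library.

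Fractional counts show in how many rows reads were divided, not how many reads. Nor does a whole count mean unshared sequence. Gm6710 had a whole control count of 697, although every 50-base window of its annotated transcript occurs in another gene. An estimated count that is not a whole number means that RSEM divided at least 1 read between this gene and another. In the control library 66 of 72 members (91.7%) had a fractional count and in the HTL library 67 (93.1%). The shares were 54.1% and 50.7% for Zfp-named rows and 21.8% and 20.2% for all rows of the table. Only 2610008E11Rik and 9130023H24Rik had whole counts in both libraries. 2610008E11Rik had 224 and 107 reads, a ratio of -0.88 (-1.23 to -0.54). 9130023H24Rik had 25 and 21 reads, a ratio of -0.06 whose interval spanned 0. No 50-base window of either one's annotated transcript occurred in another gene.

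Over the 58 members with a coding transcript, the median share of 50-base windows that also occur in another gene's transcript was 44.8%. For 14 members every window did. An annotated transcript can be shorter than the counted row, as for Gm14434 with 1497 bases against 4538. The bases beyond it were not compared. The 26 members with at least 50% of windows shared had a median ratio of -1.19 and 13 lower. The 32 members with less had a median of -0.87 and 9 lower. The group with less still includes rows with up to 47.9% of windows shared, and the difference between these medians was not tested.

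Copies within a set were compared by the best protein match that the table gives each row. In 12 sets, a member shared its best match with at least 1 other row, and these sets held 24 members and 7 other rows. When the rows of each set were summed, 10 of the 12 sets were lower and 0 were higher, at the same cutoffs by the exact binomial test. Over all 60 best matches of the members 27 were lower (background 7.85%), 0 were higher (background 2.75%), and the median was -1.03. By a log2 cutoff and test on single rows, 17 of 48 members with a match of their own were lower (median -0.88), and 11 of 24 members in shared sets (median -1.26).

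The set with most copies shows why single rows are uncertain. Gm14308, Gm14430, Gm14434 and Gm4724 have the same 1497-base coding sequence with 0 mismatches, as do 4 further genes of the annotation that are not members. RSEM gave 749.92 of their control reads (94.4%) to Gm14430. The counted rows of these 4 members are 4538 bases long, and their bases outside the coding sequence were not compared. Gm14434 had 14.66 and 20.93 reads, Gm14308 14.73 and 20.63, and Gm4724 14.78 and 17.97. Their ratios of 0.65, 0.65 and 0.44 had intervals that span 0. Gm14430 went from 749.92 to 311.42 reads, a ratio of -1.08 (-1.28 to -0.89). It stood at -0.95 to -0.97 under the other scalings, past the cutoff only with library totals.

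Together with 0610010B08Rik, the set had 1113.82 control and 370.95 HTL reads, a ratio of -1.40 (-1.58 to -1.23). Without 0610010B08Rik, whose promoter window is identical to that of 3 of these copies, it had 794.09 and 370.95 reads and a ratio of -0.91 (-1.10 to -0.73). The set thus passes the cutoff of 1 only with the row that went from 319.73 reads to 0. The sum of all 5 copies does not depend on how reads were divided among them, although reads may also have been divided with genes outside the set.

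The only rise also lay in a shared set. Gm14436 (0 and 26.81 reads) shares its best match with Gm8923 (62.9 and 0 reads) and Gm8898 (324.57 and 91.53 reads, RefSeq Zfp966). In the control library the smaller share of the set's reads was on Gm8923, and in the HTL library on Gm14436. Summed, the set had 387.47 and 118.34 reads and a ratio of -1.52 (-1.83 to -1.22). No rise remained in the sum, and the part of read division in the rise of Gm14436 and the loss of Gm8923 was not tested.

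The other 3 sets that hold at least 2 members, with at least 1 called, and the most reads fell as sums. Gm6710, Gm14391 (28.56 and 6.01 reads) and the named gene Zfp931 had 830.7 and 126.73 reads, a ratio of -2.52 (-2.81 to -2.25). Gm6710 and Gm14391 have identical coding sequences of 1665 bases. Gm14305 (189.24 and 33.56 reads) and Gm14432 (199.6 and 50.4 reads), identical over 1497 coding bases, had a ratio of -2.02 (-2.38 to -1.68). These 2 differ from the Gm14430 copies at 7 of 1497 bases. Gm14420, Gm14440 (298.44 and 92.85 reads) and Gm14405 (21.38 and 6.11 reads) had 1674.33 and 733.59 reads, a ratio at the edge of the cutoff of 1 with an interval of -1.13 to -0.88. The intervals of the Gm6710 and Gm14420 sums do not overlap, but they cover counting error alone. Reads may also have been divided with genes outside these sets.

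**Figure D4:**
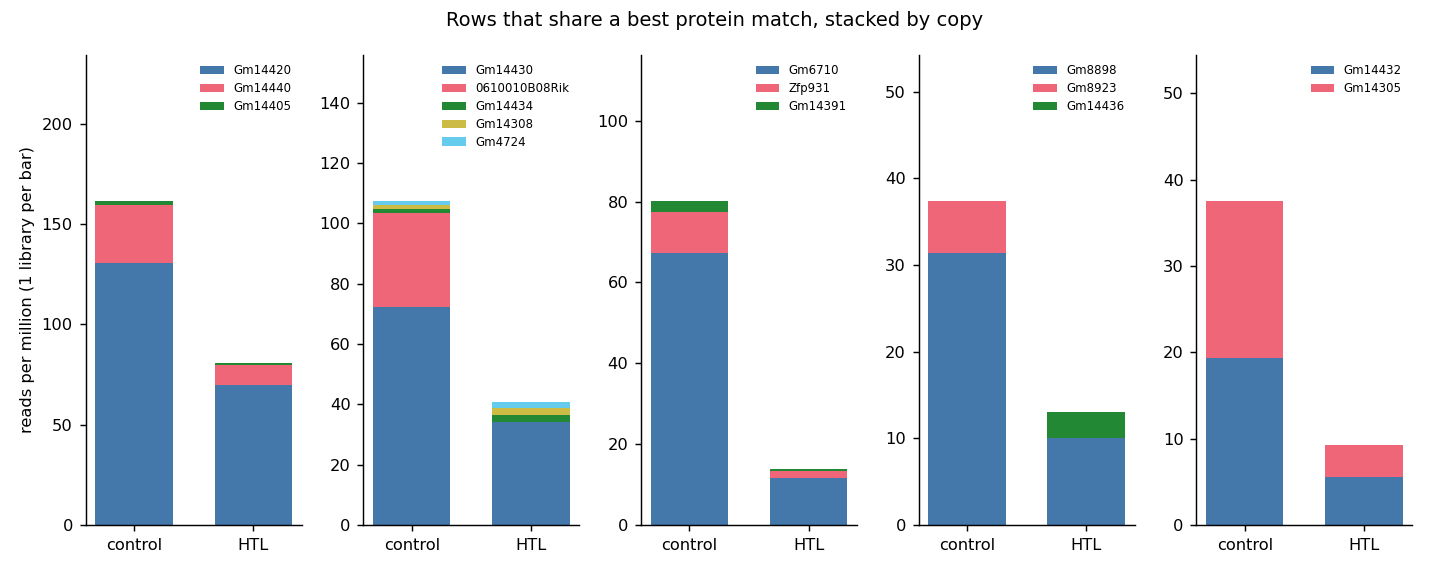
CPM (reads scaled to equal library totals) in the control and HTL libraries (1 library per bar) for the 5 sets with the most reads among those in which at least 2 members, at least 1 of them called, share a best protein match, stacked by row. Each panel has its own vertical axis from 0. Each HTL bar is lower than its control bar, and single copies such as 0610010B08Rik, Gm8923 and Gm14436 appear in 1 library only.

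Position in the genome grouped the members further. RefSeq matched 69 of 72 members by gene ID, of which 55 are listed as protein coding, 10 as long non-coding RNA and 4 as transcribed pseudogenes, and 21 now have a Zfp symbol. Of the protein-coding members 23 were lower (median -0.95), of the non-coding ones 3 (median -0.84), and of the pseudogenes 0. The 3 members with no RefSeq record by gene ID were Gm14430, Gm14432 and Gm14436. Members on 1 chromosome with no gap above 3 Mb, and at least 3 in a row, were treated as a cluster. This gave 6 clusters, with 49 members, and 23 members outside a cluster. NCBIM37 coordinates were found for 63 members by symbol.

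The largest cluster, at chr2:174887050-177692002 (NCBIM37), held 25 members, 14 of them lower, 1 higher and 10 not called. Its summed reads were 7397.48 and 2468.49, a ratio of -1.40 (-1.46 to -1.33), 2.63-fold lower. No tested row of K09228 with another kind of symbol was placed among them by gene ID. Rows listed only under a transcript name could not be placed in any cluster. Among such rows, NM_001324422 shares its best protein match with Gm14322 of this cluster. That set summed to 539.95 control and 116.61 HTL reads, a ratio of -2.02. Of the 18 members whose promoter held the 54-base run, 11 were lower, 0 were higher and 7 were not called, with a median of -1.56. The ratios of single copies depend on how reads were divided, so these counts say nothing of the run's own part, which was not tested. Etohi1, the 1 row tested that held the run and is no member, had 386.86 and 244.87 reads and a ratio of -0.47.

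The chromosome 4 cluster (chr4:145104787-147183895) held 9 members and behaved unevenly. Its reads were 1647.83 and 773.8, a ratio of -0.90 (-1.03 to -0.78). Gm13152 (58.75 and 16.36 reads, ratio -1.67), 2610305D13Rik and Gm13157 were lower. Gm13139 had 157.46 and 150.07 reads, a ratio of 0.12 (-0.21 to 0.45), and Gm13251 48.88 and 60.91 reads, a ratio of 0.50 (-0.06 to 1.07). The interval of Gm13139 does not overlap that of Gm13157 (-1.46 to -0.99), although both hold the KRAB letters, and they had 10 and 11 linkers. However, 75.5% and 57.4% of their transcript windows occur in other genes, and both had fractional counts. These intervals do not cover how reads were divided. Rows of K09228 with other symbols in that span numbered 4, of which 2 were lower.

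In the chromosome 13 cluster, each of its 3 members was lower, while Gm10324 (-1.23) and 2410141K09Rik (-0.59), on the same chromosome outside the cluster, were not called. Gm3604 had 114.98 and 20.6 reads, Gm5141 121.12 and 27.54, and 6720489N17Rik 139.15 and 48.47. Their sum had a ratio of -1.76 (-2.10 to -1.44), and both named rows between them, Zfp934 and Zfp935, were lower as well. In the chromosome 17 cluster (6 members from 9330136K24Rik to Gm16386), 0 members were called, yet their sum, mostly Gm4944, had a ratio of -0.90, no weaker than -0.80 by its interval. Gm1976 and Gm20939, which lie on chromosome 17 outside that cluster, were lower with ratios of -1.40 and -1.14. Of the 11 tested K09228 rows with other symbols in the span of the chromosome 17 cluster 2 were lower (median -0.68). The clusters of 3 members each on chromosome 7 had summed ratios of -0.36 (-0.72 to -0.01) and -0.67 (-0.91 to -0.43). In the span of the first, 1 of 20 K09228 rows with other symbols was lower (median -0.19), and none was placed by gene ID in that of the second. The 23 members outside a cluster had 6 lower and a summed ratio of -1.08 (-1.18 to -0.98). The chromosome 2 interval lies below those of the chromosome 4, 17 and 7 clusters and of the unclustered members, by counting error alone.

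**Figure D5:**
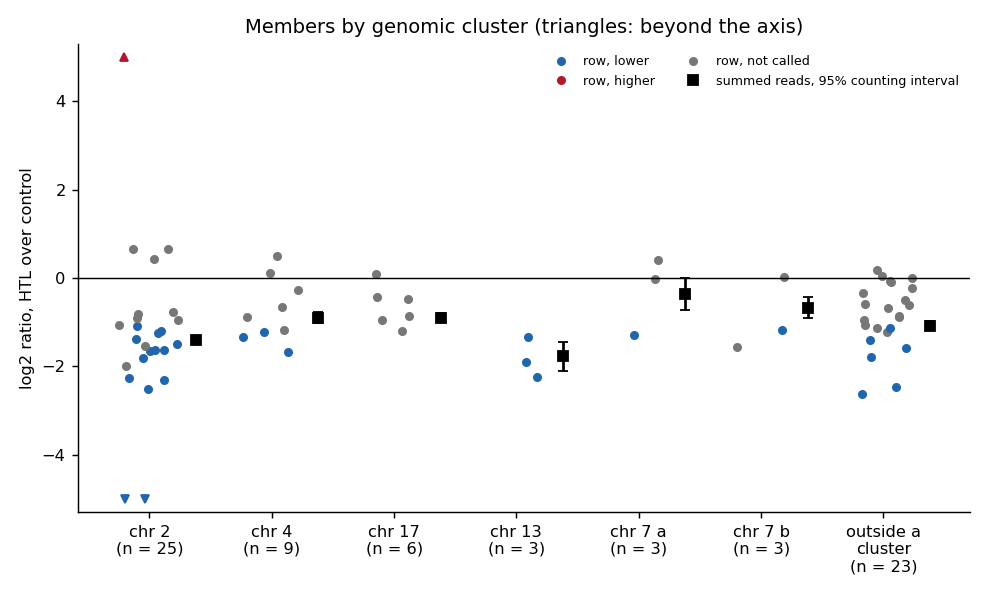
Log2 ratio of HTL over control (vertical axis) for each member (points, coloured by call), by genomic cluster (horizontal axis), with the ratio of the summed reads and its 95% counting interval as black squares beside them. The summed ratio is below 0 in each cluster, from -0.36 for the chromosome 7 cluster marked a to -1.76 on chromosome 13, and triangles mark rows beyond the axis.

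At the threshold of 10 reads, the members with the fewest reads were Gm10416 (10.92 and 10.19 reads) and 2810021J22Rik (14.84 and 7.22). The rows with the most reads left out were Gm6815 (2.35 and 0) and 3300002I08Rik (2.18 and 0). No row lay near the threshold from below, so the 72 members would be the same at any minimum between 3 and 10 reads.

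The partners of KRAB proteins were listed to set the members beside their pathway. The list held 30 symbols for genes of KRAB repression, with Fam208a and Tasor naming the same gene. Of these symbols 28 were tested, 2 were lower, 0 higher and 26 not called, with a median of -0.24. That share of lower genes is near the background of 7.98% and is no result about the list. Trim28, the corepressor that KRAB domains bind, had 5471 and 4728 reads, a ratio of -0.03 (-0.08 to 0.03). Setdb1, which methylates histone H3 lysine 9 at its targets, had 1828.6 and 1491 reads, a ratio of -0.11. Fam208a, a subunit of the HUSH silencing complex, was lower at 373.45 and 79.57 reads, a ratio of -2.03 (-2.40 to -1.68). Atf7ip2, a relative of the Setdb1 partner Atf7ip, was lower at 131 and 31 reads, a ratio of -1.88. The 26 partners that were not called had ratios from -0.95 (Cbx3, which binds methylated lysine 9) to 0.60 (Hdac1, a histone deacetylase).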

How the data were processed

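Total RNA of NE4C cells, 1 control and 1 HTL library, was prepared with an Illumina TruSeq kit and sequenced on a BGISEQ-500, per the labels. The authors aligned quality-filtered reads to mouse genome and gene sequences and used RSEM for estimates per gene. The build mm9 is listed in the submitters' processing notes, and the annotation, mapper and use of strand are not given in the sources used here. The authors deposited 1 table with estimated counts and FPKM per gene (lowest FPKM 0.01). Its columns of log2 ratio, direction, P-value and FDR hold the authors' own comparison and were not used. RSEM divides reads between similar genes, so single copies are uncertain.

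The deposited estimated counts were rounded to whole numbers. The 13426 rows whose reads summed to 10 or more entered a two-sided exact binomial test against library totals (scipy 1.17.1), adjusted by Benjamini-Hochberg over all of them. This departs from a replicated count model, since each group had 1 library. The cutoffs (absolute log2 ratio of 1, adjusted p of 0.001) follow the study. No p was computed for the sum of all members or of a genomic cluster, while the sum of each set of copies was tested as a row is. Copies were joined by the best protein match in the table. The deposited FPKM were used for levels and for 1 alternative. Promoter sequences were from RefSeq (GRCm38.p6), and coding sequences and gene coordinates from GENCODE vM1 (NCBIM37, the assembly called mm9). Motifs were searched on the coding strand of coding sequences and on both strands of promoters. The test was run on simulated data first. edgeR 4.0.16 and DESeq2 1.42.0 served for alternatives.

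The members, lists and tests were chosen with earlier results of these data known. Named members were the 10 with the most reads, the 5 largest rises and falls, every member of the 5 sets with the most reads among those that hold at least 2 members and at least 1 call, the rows next to the read threshold and the called KRAB partners. Other members were named after their values were seen, as examples of a cluster or of whole counts.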

Additional observations from a re-analysis of the deposited data

How the results depend on the processing

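No paired analysis was possible because the control and HTL groups hold 1 library apiece, which also means that leaving one out gives no fit. The summed ratio of -1.16 was -1.03 with edgeR's TMM factors, -1.02 with DESeq2's size factors and -1.04 with upper-quartile scaling, each outside its counting interval. The median member ratio of -1.07 was -0.68 on the deposited FPKM with 1 added, a scale that shrinks rows of low level. The 29 called members became 9 (8 of them lower) at an absolute log2 ratio of at least 2. With edgeR's exact test and an assumed biological coefficient of variation of 0.1, 0.2 and 0.4, 27, 7 and 1 members were called. The number called thus depends on a spread between cultures that these libraries cannot measure. Summing rows that share a best protein match turned the direction of 4 named members, to -1.52 for Gm14436 and to -1.40 for Gm14308, Gm14434 and Gm4724. The other scalings, an addition of 5 reads and either filter on low counts left the number of called members between 24 and 29. These settings and the sum of unrounded counts left the summed ratio below 0. With TMM, DESeq2 or upper-quartile scaling, chosen for the sets after seeing the data, 8 of the 12 sets were lower in place of 10. The comparison with rows of like length and reads, and the set without 0610010B08Rik, were also chosen after seeing the data.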
